A study of Drosophila melanogaster with 72 samples.

Results

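The comparison set nuclear RNA from flies labelled Set1 RNAi against nuclear RNA from control flies labelled mCherry RNAi during the light phase. Its members were set by their labels, with earlier results of these data known. They were the libraries of both genotypes collected at ZT4 and ZT8, that is 6 labelled Set1 RNAi and 6 labelled mCherry RNAi, or 12 of the 72 libraries in the series. ZT counts hours from lights on, so both time points fall within the light phase of the 12 h light and 12 h dark cycle. Features with an FBgn identifier were analysed, and the time point was a term in the model.

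Set1 is a histone methyltransferase that places methyl groups on lysine 4 of histone H3 (H3K4) as the catalytic subunit of a COMPASS complex, and H3K4 trimethylation marks the promoters of active genes. Drosophila has other enzymes of this kind in trithorax (trx) and trithorax-related (trr). The outer photoreceptors of the fly eye express the rhodopsin Rh1, detect light through a phospholipase C cascade that opens TRP channels, and hold a circadian clock of their own, in which CLK and CYC activate per, tim, vri, Pdp1 and cwo, whose products act back on that loop.

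Male flies of day 10 after eclosion (D10) carried Rh1-Gal4, which drives expression in outer photoreceptors. Both genotypes also carried GFP-tagged KASH protein on the nuclear envelope and a UAS hairpin at the attP2 site. In the controls the hairpin targeted mCherry, a protein that flies do not make, and in the other group it targeted Set1 (line HMS01837). Each library came from nuclei enriched with an antibody against GFP from the pooled heads of 400 flies, and each genotype and time point had 3 replicates. Each genotype is 1 RNAi line, so any other difference between the lines cannot be told apart from the hairpin. The labels do not say that replicates came from separate crosses, and p-values therefore measure the spread between these libraries.

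The authors counted read pairs on exons, and the 12 libraries held 9736932 to 13477908 counts. Counts were divided by the library total and scaled to CPM (the usual unit of normalised read counts) with factors of the trimmed mean of M values (TMM) between 0.92 and 1.09, and 10622 features with at least 1 CPM in all 3 replicates of at least 1 group were tested. The leading principal component separated the genotypes and carried 37.8% of the variance, and the next one separated ZT4 from ZT8 with 21.8%. The targeted gene itself did not follow the labels. Set1 (FBgn0040022, 3L, 25107594 to 25115180) lay between 131 and 234 CPM in the control (median 208) and between 161 and 210 CPM in the libraries labelled Set1 RNAi (median 199). The log2 fold change of Set1 was -0.03 (standard error 0.11, adjusted p = 0.882, with Benjamini-Hochberg adjustment of the quasi-likelihood test in edgeR), and the ranges overlapped. These are nuclear transcripts, so the level of mature Set1 mRNA was not measured. Groups are therefore named by their labels, and "Set1-labelled libraries" stands for the libraries labelled Set1 RNAi.

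Under the thresholds of the study (adjusted p under 0.01 and at least a 2-fold difference), 471 of the 10622 features (4.43%) were higher and 181 (1.7%) lower in the Set1-labelled libraries. Without the fold minimum, at an adjusted p under 0.05, 1487 (14%) were higher and 1344 (12.7%) lower, and these shares are the background for every list below. They depend on the fit, with 754 higher and 709 lower when 1 factor of unwanted variation was removed, 632 and 390 with ZT4 alone, and 789 and 548 without replicate 3 of every group. The median log2 fold change over all features was -0.03. All 6 Set1-labelled libraries lay above all 6 control libraries in 495 features (4.66%) and below them in 461 (4.34%). Of the features past the study's thresholds, 312 of 471 (66.2%) and 122 of 181 (67.4%) had no overlap of this kind. Fold changes below are log2 values of Set1-labelled over control libraries with their standard errors (SE), and p-values are adjusted ones from edgeR's quasi-likelihood test.

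Coding genes named here for their rises had at least 10 CPM in the Set1-labelled libraries, no overlap between the 2 groups of 6 and a gene name rather than a CG number. Their known roles varied. CanA1 (FBgn0010015, 3R), a catalytic subunit of the phosphatase calcineurin, was at 0.578, 1.32 and 3.15 CPM (lowest, median and highest of 6) in the control and at 4.27, 14.2 and 22.5 CPM in the Set1-labelled libraries. All 6 Set1-labelled libraries were above all controls, and those of ZT4 were above those of ZT8. The log2 fold change of CanA1 was 3.04 (SE 0.42, edgeR adjusted p = 6.01e-05). Zasp66 (FBgn0035917, 3L), a protein of the muscle Z-disc, was at 7.21, 10.8 and 27.1 CPM in the control and at 34.4, 128 and 324 CPM in the Set1-labelled libraries. Again the ranges did not meet, and the Set1-labelled ZT4 libraries were the highest (fold change 3.01, SE 0.31, edgeR adjusted p = 2.94e-06). The TFIID subunit Taf1 (FBgn0010355, 3R), part of the general transcription machinery at promoters, was among the most abundant transcripts of the nuclei, at 747, 2035 and 4396 CPM in the control and 5777, 11450 and 16520 CPM in the Set1-labelled libraries. The lowest Set1-labelled library was above the highest control library for Taf1, with a fold change of 2.44 (SE 0.18, edgeR adjusted p = 1.31e-07).

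The FGF ligand bnl (FBgn0014135, 3R), known for guiding tracheal branches, rose from 16.6, 19.9 and 31.7 CPM to 72.0, 99.9 and 113 CPM, a fold change of 2.21 (SE 0.16, edgeR adjusted p = 1.04e-07). Its 2 groups of 6 did not overlap. The Halloween-type cytochrome P450 spok (FBgn0086917, 3R), which acts in ecdysteroid synthesis in the ring gland, was at 2.22, 8.45 and 10.3 CPM in the control and 37.1, 46.0 and 53.9 CPM in the Set1-labelled libraries (fold change 2.54, SE 0.23, edgeR adjusted p = 9.25e-07). Ass, the argininosuccinate synthase gene, was at 85.3, 237 and 514 CPM in the control and 876, 1635 and 2330 CPM in the Set1-labelled libraries, with a fold change of 2.68 (SE 0.21). Other exons cover 64.3% of the exon bases of Ass, those of CG31286 among them. Pairs that touched both genes were not assigned, so the values rest on the remaining bases. Of the other rises named by the same rule, COX7AL had a fold change of 2.82, plh 2.56, pwn 2.30, the kinetochore gene Spc105R 2.19, Jhbp1 of the juvenile hormone binding protein family 2.19, and the thiol reductase gene GILT3 1.94, all from control medians under 5 CPM.

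**Figure D1:**
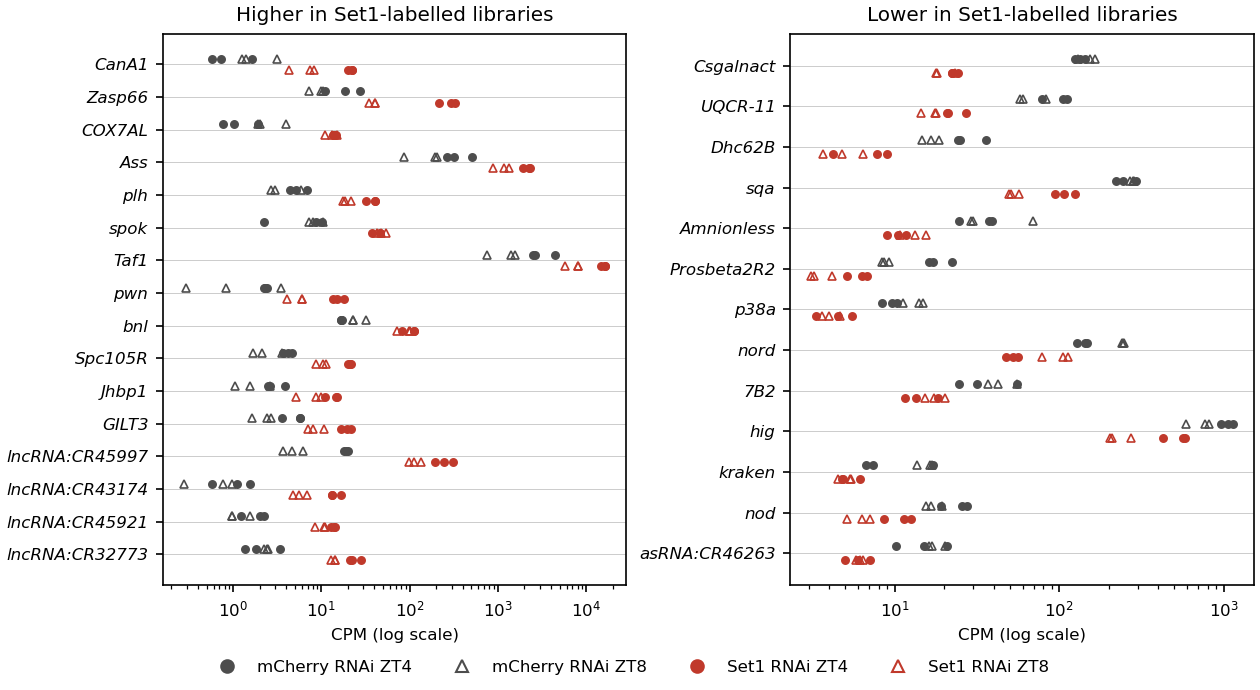
CPM (log scale) of the genes with the largest rises (left) and falls (right) among those with at least 10 CPM in the higher genotype, no overlap and a gene or RNA-class name, in each of the 12 libraries; filled circles are ZT4, open triangles ZT8, grey mCherry RNAi and red Set1 RNAi. Red and grey points do not overlap in any line, a condition of the selection; CanA1 ran from 0.578 to 3.15 CPM in grey and from 4.27 to 22.5 CPM in red.

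Noncoding RNAs made up a large share of the rises. Of 818 tested features with the biotype ncRNA, 121 (14.8%) were higher and 14 lower at the study's thresholds, while of 9463 protein-coding genes 341 (3.60%) were higher and 162 (1.71%) lower. Among 673 long noncoding RNAs, 218 (32.4%) were higher and 44 (6.54%) lower at an adjusted p under 0.05, with a median log2 fold change of 0.33 beside -0.03 over all features. Many of them are scarce. Among features with a mean under 3 CPM, 20.5% of ncRNAs and 7.10% of coding genes were higher at the study's thresholds, and above 10 CPM it was 6.61% and 2.16%. When at least 1 CPM was required in every library, 98 lncRNA features were higher and 26 lower, and without Set1 RNAi ZT8 replicate 1 the lower ones numbered 29.

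The most strongly raised transcript among these with at least 10 CPM was lncRNA:CR45997 (FBgn0267659, 2R, 17262339 to 17262748). It was at 19.8, 19.2 and 18.0 CPM in the control libraries of ZT4 and 6.20, 3.67 and 4.69 CPM in those of ZT8. In the Set1-labelled libraries it reached 245, 313 and 195 CPM at ZT4 and 98.4, 134 and 111 CPM at ZT8. Both genotypes were higher at ZT4, and at each time point every Set1-labelled library was above every control, with a fold change of 4.10 (SE 0.18, edgeR adjusted p = 2.42e-10). lncRNA:CR43174 (fold change 3.43) and lncRNA:CR45921 (3.00) lie near each other on 3L, at 17934032 to 17946114 and 17981321 to 17981841, and lncRNA:CR32773 (2.97) spans 4387676 to 4611385 on X. None of the 3 passed a median of 3 CPM in the control.

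At the study's thresholds falls were fewer than rises (181 against 471). Without the fold minimum the counts were closer (1344 against 1487). Genes with CG numbers are left out here, among them CG31516 (-5.40) and CG11052 (-3.83), which are given further below. Csgalnact (FBgn0033500, 2R), a glycosyltransferase of chondroitin sulfate synthesis, was at 126, 139 and 166 CPM in the control and at 17.9, 22.3 and 24.4 CPM in the Set1-labelled libraries. The 2 groups were tight and far apart, with a fold change of -2.74 (SE 0.11, edgeR adjusted p = 7.79e-11). UQCR-11 (FBgn0260008, 3L, 25120709 to 25126171), a subunit of respiratory complex III whose gene lies beside MED21 and Set1, fell from 58.0, 81.0 and 112 CPM to 14.6, 19.3 and 27.3 CPM. No library of either group entered the range of the other for UQCR-11 (fold change -2.06, SE 0.13, edgeR adjusted p = 1.43e-08). The adjoining MED21 itself had a fold change of -0.35 (edgeR adjusted p = 0.107).

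Other falls included the myosin light chain kinase-like gene sqa, which went from 223, 275 and 294 CPM to 49.8, 75.8 and 126 CPM (fold change -1.81, SE 0.18, edgeR adjusted p = 2.49e-06). The control libraries were alike at ZT4 and ZT8, and the Set1-labelled libraries of ZT8 were below those of ZT4. hig, which encodes a protein of the synaptic cleft, fell from 590, 888 and 1136 CPM to 203, 352 and 586 CPM (fold change -1.33, SE 0.14), and the highest Set1-labelled library was only just under the lowest control. nord, which encodes a secreted modulator of BMP signals, fell from 129, 194 and 247 CPM to 47.7, 67.4 and 113 CPM (fold change -1.37, SE 0.10). The dynein heavy chain gene Dhc62B had a fold change of -1.88, the stress-activated kinase p38a -1.41, the prohormone convertase helper 7B2 -1.36, kraken -1.30 and the kinesin-like gene nod -1.30. Amnionless, whose product partners cubilin in nephrocytes, had a fold change of -1.70, and asRNA:CR46263, the only RNA-class fall that the rule named, one of -1.44. Other exons cover 55.0% and 65.4% of the bases of these last 2, and pairs that touched 2 features were not assigned.

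Genes of phototransduction were mostly lower. Of 34 tested members, 18 fell and 4 rose at an adjusted p under 0.05 (52.9% and 11.8%, beside 12.7% and 14% over all features), and the median log2 fold change was -0.33. At the head of the cascade, the Rh1 opsin gene ninaE was at 8872, 11140 and 13430 CPM in the control and 7741, 8612 and 10810 CPM in the Set1-labelled libraries. Its ranges overlapped at ZT4, and at ZT8 all 3 Set1-labelled libraries were lower (fold change -0.33, SE 0.11, edgeR adjusted p = 0.0395). The arrestins, which end rhodopsin's activity, fell further: Arr2 went from 3078, 3676 and 4869 CPM to 2053, 2293 and 3058 CPM (fold change -0.64, SE 0.12, edgeR adjusted p = 0.000918), and Arr1 had a fold change of -0.57. The call for ninaE was lost in 11 of 15 fits with libraries left out. Among the other steps, the G protein beta subunit Gbeta76C had a fold change of -0.45, the phospholipase norpA -0.27, and the channels trp and trpl -0.32 and -0.39. These calls were lost in 10 of the 15 fits for Gbeta76C, 10 for norpA, 8 for trp and 6 for trpl.

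Members of the signalling complex and of lipid turnover were also lower. The eye protein kinase C gene inaC went from 597, 1087 and 1831 CPM to 383, 634 and 837 CPM, with every Set1-labelled library below every control at the same time point (fold change -0.80, SE 0.13, edgeR adjusted p = 0.000269). The CDP-diacylglycerol synthase gene Cds, which recycles phosphoinositides, went from 434, 527 and 675 CPM to 259, 303 and 398 CPM, without overlap (fold change -0.77, SE 0.09, edgeR adjusted p = 1.2e-05). The scaffold gene inaD had a fold change of -0.53, the phosphatidylinositol synthase gene Pis -0.51, the myosin III gene ninaC -0.47, the phosphatase gene rdgC -0.36, the diacylglycerol kinase gene rdgA -0.33 (lost in 6 of the 15 fits) and the carotenoid oxygenase gene ninaB -0.60. The 4 rises were Ggamma30A, inaE, CG34384 and inaF-A. The G protein gamma subunit Ggamma30A was at 10560, 13700 and 20990 CPM in the control and 16960, 18960 and 25370 CPM in the Set1-labelled libraries, with overlap at ZT4 (fold change 0.46, SE 0.12, edgeR adjusted p = 0.00868). inaF-A rose by 1.68 and inaF-B fell by 0.60, and other exons cover 76.5% and 86.6% of their bases, so few bases gave these counts.

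The number of falls in phototransduction depended on the time point. With ZT4 alone 3 members fell and the median was -0.12, and with ZT8 alone 19 fell and the median was -0.44. The count was 12 without Set1 RNAi ZT8 replicate 1, 12 without Set1 RNAi ZT8 replicate 2, and 8 with 1 factor of unwanted variation removed. In the test of ZT8 against ZT4, the lowest edgeR adjusted p in this list was 0.289, and 7 members had an unadjusted p under 0.05.

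Markers of the cells were examined beside these genes. All 10 genes listed as outer photoreceptor markers, 9 of them phototransduction genes, were lower, with a median fold change of -0.50. Their summed level was 56860 to 84750 CPM in the control (median 73230) and 49970 to 57640 CPM in the Set1-labelled libraries (median 53700). Only ninaE among them encodes the Rh1 opsin of the outer cells, so these genes cannot set outer photoreceptors apart from inner ones. The rhabdomere protein gene chp, the marker outside the phototransduction list, fell from 4369, 5950 and 7573 CPM to 3057, 3465 and 4574 CPM (fold change -0.69, SE 0.10, edgeR adjusted p = 7.67e-05). The count of 10 was 6 without mCherry RNAi ZT8 replicate 3, 6 without Set1 RNAi ZT8 replicate 1, and 6 without Set1 RNAi ZT8 replicate 2. It was 3 with ZT4 alone, the lowest of the alternatives, 9 with ZT8 alone, 6 with a replicate block of time point and number, and 5 when 1 factor of unwanted variation was removed. Fewer cells of a type and less RNA per cell cannot be told apart in such bulk samples.

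The other lists of cell markers moved less uniformly. Of 8 glia markers, 3 rose and 1 fell, and their sum was 422 to 1145 CPM in the control (median 678) and 881 to 1980 CPM in the Set1-labelled libraries (median 1367). Most of it was the glutamate transporter gene Eaat1, which went from 127, 362 and 788 CPM to 622, 1066 and 1644 CPM (fold change 1.73, SE 0.18, edgeR adjusted p = 4.67e-06). The defining glial transcription factor gene repo had means of 13.3 ± 1.74 CPM in control and 15.2 ± 1.86 CPM in Set1-labelled libraries (SD, n = 6 each), with a fold change of 0.20 (edgeR adjusted p = 0.263). Of 9 lens and pigment cell markers, 2 rose and 1 fell, with a sum of 1263 to 4434 CPM against 2724 to 5450 CPM, most of it from w, the pigment precursor transporter gene (fold change 0.75), which is also a common marker of transgenes. Of 6 inner photoreceptor markers 1 rose (pros, fold change 0.49), of 10 brain neuron markers 1 (VAChT, with 10 of the 15 leave-out fits losing each of these 2 calls), of 6 fat body markers 1 (Lsp1gamma, fold change 2.11), of 10 muscle markers 2 rose (TpnC41C and wupA) and 1 fell (Mlc2). The lowest edgeR adjusted p among 6 hemocyte markers was 0.162, and none had an unadjusted p under 0.05. Whether the mix of nuclei differed between the groups, and what part it had in any result, was not tested.

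**Figure D2:**
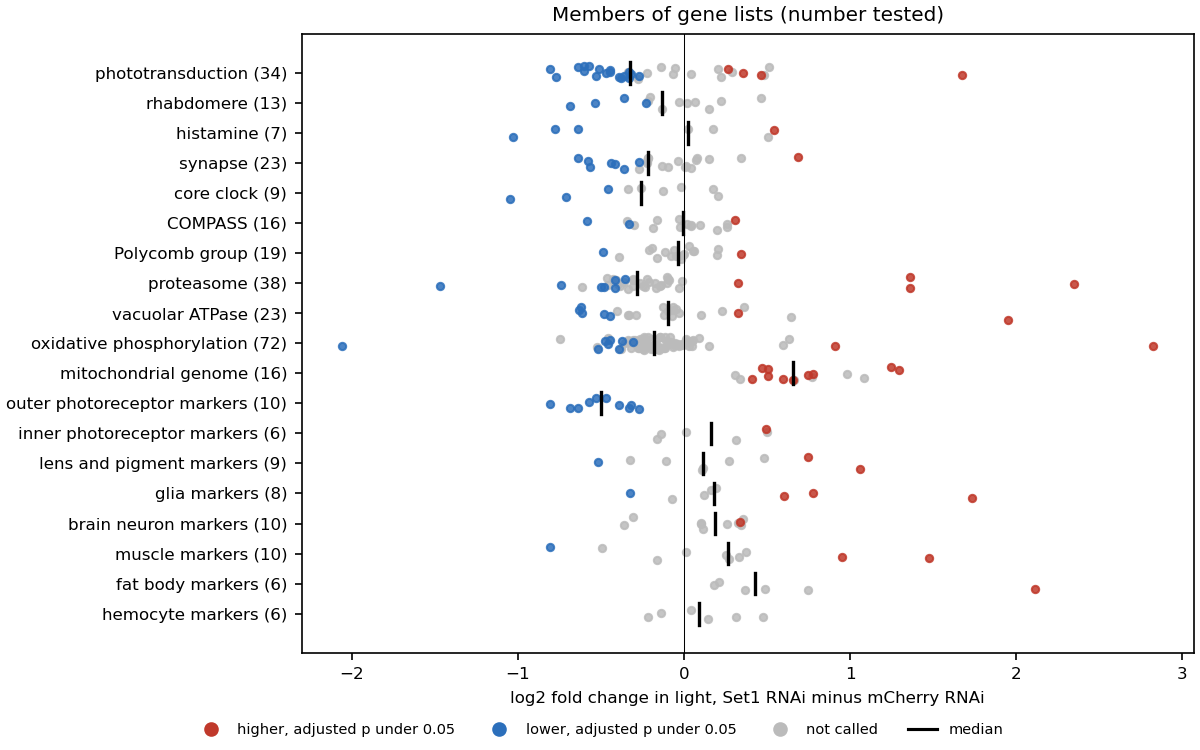
Log2 fold change in light, Set1 RNAi over mCherry RNAi, of every tested member of 19 gene lists, with the number tested in brackets; red and blue points passed an adjusted p under 0.05, grey points did not, and black bars are medians. The outer photoreceptor markers lie to the left of 0 with a median of -0.50, and the mitochondrial genome lies to its right with a median of 0.66.

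Photoreceptors signal with histamine, and several genes of this output were lower. CarT, the transporter that returns carcinine to photoreceptors, went from 244, 418 and 531 CPM to 154, 208 and 236 CPM, with every Set1-labelled library below every control of its time point (fold change -1.03, SE 0.17, edgeR adjusted p = 0.000307). The histamine-gated chloride channel gene HisCl1 went from 63.9, 80.3 and 97.2 CPM to 42.0, 46.7 and 52.4 CPM, without overlap (fold change -0.78, SE 0.11, edgeR adjusted p = 5.62e-05). tan (t), which frees histamine from carcinine, had a fold change of -0.64, and ebony (e), which joins histamine to beta-alanine in glia, one of 0.54. These were the 3 falls and 1 rise among 7 tested genes of histamine synthesis and recycling. Of 23 genes of the active zone and synaptic vesicles, 7 fell and 1 rose (30.4% and 4.35%), with a median of -0.22. The falls of this synapse list numbered 2 with ZT4 alone, 8 with ZT8 alone and 4 when 1 factor of unwanted variation was removed. Synapsin (Syn) went from 1653, 1785 and 2183 CPM to 959, 1158 and 1466 CPM, without overlap (fold change -0.64, SE 0.11, edgeR adjusted p = 0.000331). The presynaptic calcium channel gene cac had a fold change of -0.57, synaptogyrin (Syngr) -0.57, complexin (cpx) -0.41 (lost in 5 of the 15 fits), and the calcium sensor gene Frq1 one of 0.69.

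Clock genes differed between the time points. In the control, per was at 53.3, 57.8 and 54.2 CPM at ZT4 and at 650, 637 and 658 CPM at ZT8. In the Set1-labelled libraries it was at 85.7, 78.6 and 78.0 CPM at ZT4 and at 393, 399 and 531 CPM at ZT8. The Set1-labelled libraries were thus all above the control at ZT4 and all below it at ZT8. The fold change of per was 0.55 at ZT4 (edgeR adjusted p = 0.0063) and -0.56 at ZT8 (edgeR adjusted p = 0.0053), and the difference between these effects was -1.11 (edgeR adjusted p = 0.0194). Because the directions cancel, the mean over both times was -0.02.

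vri and cwo, which encode repressors fed by the same activator, showed the same order of groups. vri was at 57.0, 35.9 and 45.8 CPM in the control and 102, 65.9 and 97.6 CPM in the Set1-labelled libraries at ZT4, and at 1250, 1191 and 1158 CPM against 789, 790 and 888 CPM at ZT8. The groups did not overlap at either time, and the difference between the effects was -1.48 (edgeR adjusted p = 0.0194). For cwo the control went from 36.1, 34.4 and 38.2 CPM at ZT4 to 870, 593 and 689 CPM at ZT8, and the Set1-labelled libraries from 51.8, 54.5 and 56.5 CPM to 396, 390 and 466 CPM, again without overlap (difference -1.36, edgeR adjusted p = 0.00882).

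tim was lower at both time points, and the fall passed the test at ZT8 only. It was at 361, 316 and 351 CPM in the control and 292, 280 and 294 CPM in the Set1-labelled libraries at ZT4, and at 10570, 9286 and 10690 CPM against 4168, 4054 and 5373 CPM at ZT8. The fold change of tim was -0.25 at ZT4 (edgeR adjusted p = 0.22) and -1.17 at ZT8 (edgeR adjusted p = 2.02e-05), with a difference of -0.92 (edgeR adjusted p = 0.0408). Of the activators, cyc fell from 28.8, 33.5 and 39.2 CPM to 14.9, 16.04 and 19.1 CPM, without overlap and to a like extent at both times (fold change -1.04, SE 0.11, edgeR adjusted p = 3.45e-06). Clk had a mean fold change of -0.46 (edgeR adjusted p = 0.0481), a call lost without 12 of the 15 sets of libraries left out in turn, and Pdp1, another clock transcription factor gene, one of -0.81 at ZT8 (edgeR adjusted p = 0.007). Of 10 genes of clock protein kinases, phosphatases and turnover, dco (doubletime) rose by 0.61, CkIIalpha by 0.82, and the F-box gene jet fell by 0.43, a call lost in 10 of the 15 fits. The 2 groups of 6 did not overlap for dco and CkIIalpha, and the photoreceptor protein gene cry was at 0.20 (edgeR adjusted p = 0.271).

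**Figure D3:**
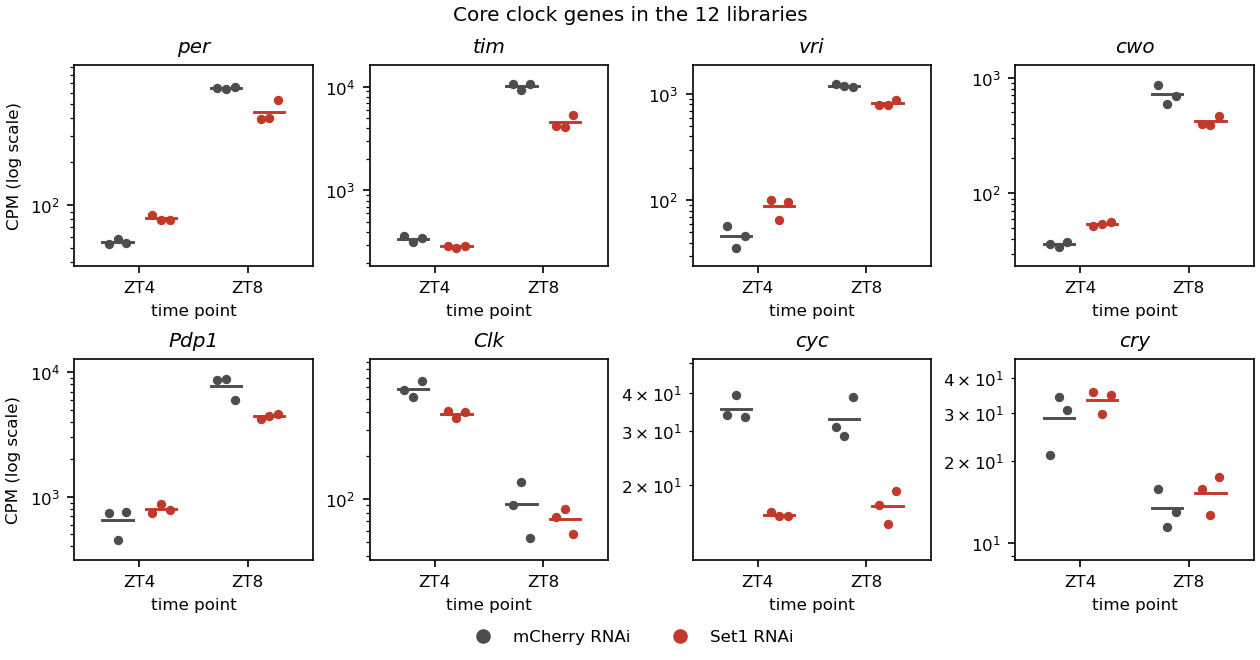
CPM (log scale, own axis for each gene) of 8 core clock genes in the control (grey) and Set1-labelled (red) libraries at ZT4 and ZT8; points are libraries and bars the mean of 3. For per, vri and cwo the red points lie above the grey at ZT4 and below them at ZT8, where per was at 637 to 658 CPM in grey and 393 to 531 CPM in red, and cyc is lower at both times.

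The 4 clock genes with a difference between ZT4 and ZT8 belong to 21 such features of 10622 (0.198%), and 1026 had an unadjusted p under 0.05. Leaving out libraries lost many of these calls: of 15 such fits, the difference failed in 9 for per, 14 for tim, 8 for vri and 5 for cwo, and it kept its sign in all of them. The count of 21 itself was between 1 and 7 without any 1 of 8 libraries, namely replicates 1 and 2 of each of the 4 groups, and between 15 and 21 without any 1 replicate 3. Other members of the 21, named here after their values were seen, differed in kind. GAPsec was at 12.5, 13.3 and 12.6 CPM in the control and 65.5, 65.3 and 45.8 CPM in the Set1-labelled libraries at ZT4, and at 14.2, 13.1 and 16.9 CPM against 14.2, 13.1 and 20.3 CPM at ZT8. It was raised at ZT4 and overlapped the control at ZT8 (difference -2.10, edgeR adjusted p = 0.00882). GAPsec adjoins S-Lap2 and Zasp66 on 3L, which had differences of -2.20 and -1.82. tyn moved the other way, from a fold change of 0.74 at ZT4 to 1.91 at ZT8 (difference 1.17, edgeR adjusted p = 0.00882).

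Genes of the H3K4 methylation machinery were called no more often than tested features at large. Of 16 tested COMPASS genes, 1 rose and 2 fell (6.25% and 12.5%, beside 14% and 12.7% over all features). The methyltransferase gene trr was at 204, 262 and 326 CPM in the control and 253, 340 and 384 CPM in the Set1-labelled libraries, and at each time point all Set1-labelled libraries were higher (fold change 0.31, SE 0.08, edgeR adjusted p = 0.00793). trx was at 383, 430 and 491 CPM against 401, 432 and 448 CPM (fold change -0.03, SE 0.08, edgeR adjusted p = 0.84), with overlap. The falls were the COMPASS subunit genes ash2 (-0.58, at control levels of 4.96 to 8.60 CPM) and Hcf (-0.33). The lowest edgeR adjusted p among 3 H3K4 demethylase genes was 0.293, and of 19 Polycomb group genes Asx rose (0.35) and escl fell (-0.48). Among 17 genes of Pol II pausing and elongation Nelf-A rose (0.33), and among 13 Integrator genes IntS12 fell (-0.48). Shares were 5.26% in each direction for Polycomb group genes, 5.88% higher for elongation genes and 7.69% lower for Integrator genes. Of these calls, escl was lost in 12 of the 15 fits with libraries left out, IntS12 in 10, Nelf-A in 9, ash2 in 5, Asx in 3, trr in 2 and Hcf in 1.

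Lists of genes for organelles and proteolysis held calls in both directions, beside 14% higher and 12.7% lower over all features. Of 72 nuclear genes of oxidative phosphorylation, 2 rose and 8 fell (2.78% and 11.1%, both under the shares of all features), with a median of -0.18. The rises were COX7A and its neighbour and paralog COX7AL. COX7AL was at 0.771, 1.94 and 3.98 CPM in the control and 11.0, 13.7 and 15.2 CPM in the Set1-labelled libraries, and COX7A at 9.68 to 23.0 CPM against 26.1 to 32.4 CPM. Neither gene's ranges overlapped, and the fold changes were 2.82 (SE 0.26) and 0.91 (SE 0.14). Of 38 proteasome genes, 4 rose and 7 fell (10.5% and 18.4%). The rises were the paralogs Prosalpha3T (fold change 1.36, SE 0.13), Prosbeta5R2 (2.35, SE 0.24), Rpt6R (1.36, SE 0.29) and Rpt3R (0.32, SE 0.10, lost in 9 of the 15 fits). Control means at ZT4 and ZT8 were 1.61 and 0.53 CPM for Prosbeta5R2, and 0.96 and 0.31 CPM for Rpt6R. For Rpt6R only the Set1-labelled libraries of ZT4 had a mean above the filter's 1 CPM (2.31 CPM). The falls included the general subunit Prosalpha7 (-0.74, SE 0.14) and the paralog Prosbeta2R2 (-1.47, SE 0.14). Prosbeta2R2 went from 8.41, 12.7 and 22.2 CPM to 3.12, 4.67 and 6.77 CPM, without overlap. Of 23 vacuolar ATPase genes, 2 rose and 5 fell (8.70% and 21.7%), among them Vha36-2 (1.95, from a control median of 2.51 CPM) and its paralog Vha36-1 (-0.63). The falls in these lists depended on single libraries. In oxidative phosphorylation they numbered 4 without Set1 RNAi ZT4 replicate 3 and 5 without either mCherry RNAi ZT4 replicate 3 or Set1 RNAi ZT8 replicate 2. In the proteasome they numbered 3 without either Set1 RNAi ZT8 replicate 2 or replicate 3, and 4 without any 1 of mCherry RNAi ZT4 replicate 2, mCherry RNAi ZT8 replicate 1, Set1 RNAi ZT4 replicates 1 and 3, and Set1 RNAi ZT8 replicate 1. In the vacuolar ATPase they numbered 3 without any 1 of mCherry RNAi ZT4 replicates 2 and 3, mCherry RNAi ZT8 replicate 2, Set1 RNAi ZT4 replicates 1 and 3, and Set1 RNAi ZT8 replicate 2.

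Transcripts of the mitochondrial genome were higher for 10 of 16 tested features at an edgeR adjusted p under 0.05, and none was lower at an unadjusted p under 0.05 either. Their median fold change was 0.66. mt:Cyt-b was at 32.5, 44.2 and 58.1 CPM in the control and 43.1, 63.2 and 91.4 CPM in the Set1-labelled libraries, with overlap at ZT4 (fold change 0.50, SE 0.13, edgeR adjusted p = 0.00881). mt:ATPase8 had a fold change of 1.29 (SE 0.29), from control means of 1.3 CPM at ZT4 and 2.4 CPM at ZT8, and mt:CoIII one of 0.47 (SE 0.14). For the mitochondrial genome the count was 3 without Set1 RNAi ZT8 replicate 1, 4 without mCherry RNAi ZT8 replicate 3, 5 without mCherry RNAi ZT8 replicate 2, and 6 without each of mCherry RNAi ZT4 replicate 2, Set1 RNAi ZT4 replicate 1 and Set1 RNAi ZT8 replicate 2. It was 2 with 1 factor of unwanted variation removed, and 1 with ZT4 alone, without replicate 2 of every group and in the fit of 35 libraries. In darkness the median of this list was -0.23, of the opposite sign.

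Stress and signalling lists held calls near or under the shares over all features (14% higher and 12.7% lower). Shares higher were 9.52% for heat shock, 4.5% for oxidative stress, 5.26% for immunity and autophagy, 18.2% for apoptosis and 15.4% for glycolysis. Shares lower were 13.6% for oxidative stress, 15.8% for immunity, 5.26% for autophagy, 9.09% for apoptosis and 0 for heat shock and glycolysis. Of 21 tested heat shock genes 2 rose, among them the noncoding lncRNA:Hsromega (0.79), and of 22 genes of oxidative stress and detoxification 1 rose (Cyp6a2, 0.99) and 3 fell (Trxr1, Gclm and GstT1). Of 19 immune genes the antimicrobial peptide gene Mtk rose (1.71, from a control median of 0.709 CPM), and the NF-kappaB factor genes Rel (-0.67) and dl (-0.40) and the receptor gene PGRP-LC (-0.72) fell. Rel was at 29.3, 36.3 and 42.5 CPM in the control and 19.3, 21.4 and 28.2 CPM in the Set1-labelled libraries, without overlap (SE 0.11, edgeR adjusted p = 0.000363). Of 19 autophagy genes Atg13 rose and Atg3 fell (-0.34, lost in 4 of the 15 fits). Atg13, a subunit of the initiating kinase complex, was at 46.5, 52.8 and 55.1 CPM in the control and 116, 125 and 133 CPM in the Set1-labelled libraries, with no overlap and tight groups (fold change 1.27, SE 0.08, edgeR adjusted p = 1.43e-08). Among 11 apoptosis genes p53 (1.14) and hid (0.50) rose and Dronc (-0.46) fell, with the calls for hid and Dronc lost in 10 and 9 of the 15 fits. Among 13 glycolysis genes Ldh (1.52, from control means of 0.82 CPM at ZT4 and 1.35 CPM at ZT8) and Pfk (0.54) rose.

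Of 13 transcription factors of eye development, 4 rose and 3 fell. The falls were glass (gl), a factor of photoreceptor differentiation, from 721, 896 and 1009 CPM to 587, 647 and 693 CPM without overlap (fold change -0.45, SE 0.09, edgeR adjusted p = 0.00112), Pph13 (-0.39) and onecut (-0.33), of which onecut was lost in 10 of the 15 fits. The rises were dac (0.43), pros (0.49), sv (0.55) and lz (0.59). The number of rises was between 0 and 2 without any 1 of 9 libraries, namely mCherry RNAi ZT4 replicates 2 and 3, all 3 of mCherry RNAi ZT8, Set1 RNAi ZT4 replicates 2 and 3, and Set1 RNAi ZT8 replicates 1 and 2. Among 19 transcription factor genes of activity and light responses luna rose, from 51.0, 82.2 and 119 CPM to 107, 230 and 370 CPM, with every Set1-labelled library above every control at its time point (fold change 1.36, SE 0.18, edgeR adjusted p = 3.22e-05). EcR rose (0.32) and CrebA fell (-0.44), and these 2 calls were lost in 4 and 10 of the 15 fits with libraries left out.

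Changed features lay beside each other on the chromosomes. Of the 471 higher features, 297 (63.1%) had a higher feature as the next tested one on either side, while 7.50% of all tested features had such a neighbour. Counting only neighbours whose whole gene spans do not overlap, the share of the 471 was 57.1%, and the like share of all tested features was not computed. Of the 181 lower features, 59 (32.6%) had a lower neighbour, beside 3.26% of all tested. Adjacent called pairs of the higher set were on the same strand in 55.1% of cases and all adjacent tested pairs in 42.4%. With runs defined, after the values were seen, as at least 5 called features with at most 2 uncalled ones between them, 156 higher features fell into 20 runs of 11.7 to 364 kb, and 5 lower ones into 1 run. These counts are a description and no test was made of them. On chromosome 4, 32 of 96 features fell and 10 rose at an adjusted p under 0.05 (33.3% and 10.4%, beside 12.7% and 14%).

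The longest runs held 17 higher features each, at 19878836 to 20242873 on 2R and 30963290 to 31133050 on 3R (BDGP6.46 coordinates of the deposited annotation). The run on 3R includes CanA1, Prosalpha3T and the HMG-box gene Sox100B, which rose from 26.2, 42.3 and 63.3 CPM to 69.0, 128 and 153 CPM without overlap (fold change 1.38, SE 0.15, edgeR adjusted p = 4.16e-06), and dco lies within it. Another run of 6 features at 8341100 to 8352817 on 3R holds COX7AL and Atg13.

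Taf1 stood in a run of 10 adjacent features at 6641232 to 6696271 on 3R, all of them called higher: CG31286, Ass, Taf1, CG1307, twr, agt, lab, Edg84A, Ccp84Ag and Ccp84Ac. Edg84A, Ccp84Ag and Ccp84Ac had control means of 0.278, 0.045 and 0.218 CPM. They passed the filter on low counts only through the Set1-labelled libraries of ZT4, and were not tested in darkness. Edg84A was not higher at ZT8 (fold change -0.23). The length of the run rests in part on these genes. The Hox gene lab, which patterns the head and midgut of embryos, was at 12.9, 11.6 and 53.5 CPM in the control at ZT4 and at 0.740, 1.35 and 1.86 CPM at ZT8. In the Set1-labelled libraries lab was at 653, 573 and 482 CPM at ZT4 and 18.8, 18.1 and 25.6 CPM at ZT8. It was higher in every Set1-labelled library than in any control of its time point, and in both genotypes ZT4 exceeded ZT8 (fold change 4.30, SE 0.35, edgeR adjusted p = 3.42e-07). Beyond the run, sunz, CG15177 and sowi on the side of CG31286 had fold changes of 0.68, 0.78 and 0.81, and pb, the next Hox gene beyond the Ccp84 cluster, one of 0.33 (edgeR adjusted p = 0.48). In the fit of ZT0, ZT12, ZT16 and ZT20, lab had a fold change of 0.66 in darkness (edgeR adjusted p = 0.232), agt 0.09 and twr 0.59, whereas CG31286 was at 4.30, Ass at 4.20 and Taf1 at 3.07. Levels of lab were low then in both genotypes. At ZT12, ZT16 and ZT20 its means were 0.66, 1.27 and 2.10 CPM in the control and 1.43, 1.90 and 2.65 CPM in the Set1-labelled libraries. Those of agt were 1.75, 2.26 and 3.35 CPM against 2.21, 2.24 and 3.26 CPM.

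The run of lower features, at 4204493 to 4232342 on 3R, centred on CG31516. CG31516 was at 35.1, 38.4 and 47.0 CPM in the control and at 0.441, 0.972 and 1.35 CPM in the Set1-labelled libraries, the largest fall of any tested coding gene above 10 CPM in the control (fold change -5.40, SE 0.19, edgeR adjusted p = 2.13e-11). Its neighbours CG14636, aux, DhpD and CG14641 had fold changes of -1.02, -1.06, -1.07 and -1.23. aux, the auxilin gene of clathrin uncoating, went from 278, 314 and 380 CPM to 125, 156 and 200 CPM, without overlap. All 5 were also lower in darkness at an adjusted p under 0.05.

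**Figure D4:**
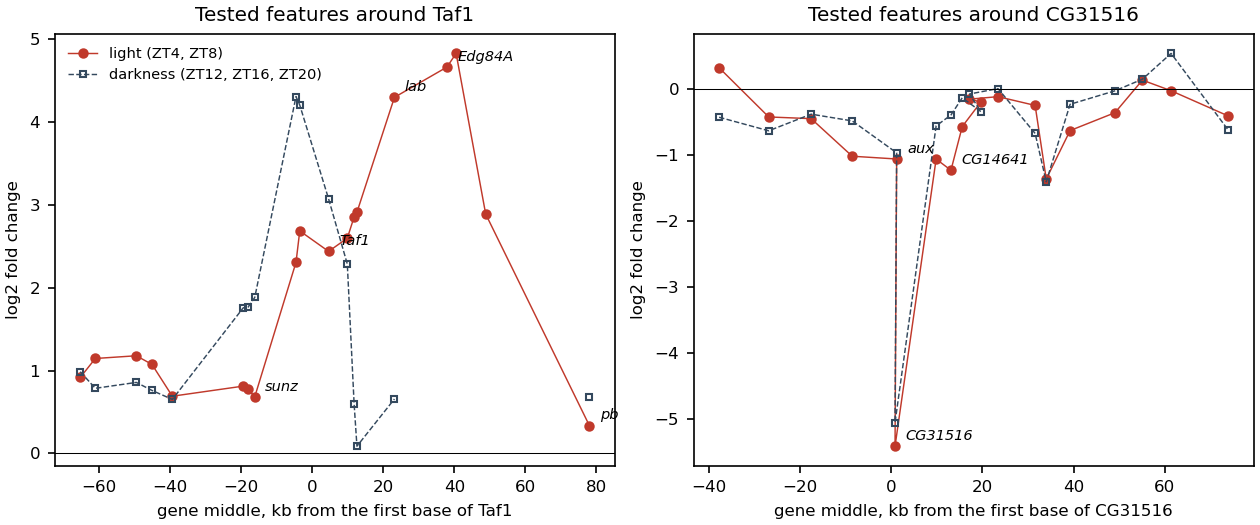
Log2 fold change of each tested feature around Taf1 (left) and CG31516 (right) against the distance of the gene's middle from the first base of Taf1 or CG31516, in kb; red circles are light (ZT4 and ZT8) and open squares darkness (ZT12, ZT16 and ZT20), and lines join neighbours. In light the values rise from 2.31 at CG31286 to 4.30 at lab, in darkness they drop from 4.30 at CG31286 to 0.66 at lab, and CG31516 is at -5.40 in light and -5.05 in darkness. Mean levels of lab in darkness ran from 0.66 CPM (control ZT12) to 2.65 CPM (Set1 RNAi ZT20).

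The libraries of the other time points, none of which entered the comparison above, were fitted separately. Set1 RNAi ZT20 replicate 1 had a total of 687 counts and was left out. It was also removed by the authors. The remaining libraries numbered 23. In darkness (ZT12, ZT16 and ZT20), 380 of 10667 features (3.56%) were higher and 58 (0.544%) lower at the study's thresholds, and 835 (7.83%) and 629 (5.9%) at an adjusted p under 0.05. Of the 471 features higher in light, 411 were tested in darkness, 398 of them had the same sign and 306 (74.5%) were higher at an adjusted p under 0.05. Of the 181 lower ones, 175 were tested, 169 had the same sign and 84 (48.0%) were lower. In edgeR's test 0 of either set were called in the opposite direction, and 1 feature of the higher set had an unadjusted p under 0.05 in that direction. The median fold changes of these sets were 1.58 in light and 1.56 in darkness for the higher set, and -1.24 and -0.82 for the lower. At ZT0, 111 of all features (1.04%) were higher and 38 (0.356%) lower at the study's thresholds. There, 235 (2.2%) were higher and 182 (1.71%) lower at an adjusted p under 0.05, and 142 of the 411 and 54 of the 175 were called at an adjusted p under 0.05. Across the 10290 features tested in both fits the fold changes of light and darkness had a Pearson's r of 0.74, a description over genes that share libraries.

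Named genes followed this pattern. Csgalnact had a fold change of -2.55 in darkness (edgeR adjusted p = 1.09e-11), UQCR-11 -1.80, sqa -1.66, bnl 2.76, spok 2.77 and COX7AL 3.38, each with the sign it had in light. cyc was at -0.74 (edgeR adjusted p = 0.015) and tim at -0.55 (edgeR adjusted p = 2.14e-05). The value for tim is a mean over unlike times. Control and Set1-labelled means were 17630 and 8362 CPM at ZT12, 11840 and 6804 CPM at ZT16, and 1273 and 1499 CPM at ZT20. Of the phototransduction genes, Cds (-0.75), inaD (-0.53), inaC (-0.48) and Arr2 (-0.36) were lower in darkness as well, whereas trp (-0.04, edgeR adjusted p = 0.858) and ninaE (-0.12, edgeR adjusted p = 0.433) did not pass.

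The effects in light and in darkness were compared directly in a fit of all 35 libraries, and 46 of 10999 features (0.418%) differed at an adjusted p under 0.05. The adjacent cytochrome P450 genes Cyp4p1 and Cyp4p2 turned direction. Cyp4p1 was at 102, 180 and 184 CPM in the control and 53.8, 97.0 and 155 CPM in the Set1-labelled libraries in light, with all Set1-labelled libraries lower within each time point (fold change -0.74), and its fold change in darkness was 1.44 (difference -2.15, edgeR adjusted p = 8.17e-05). Cyp4p2 went from -0.81 to 1.11 (difference -1.90). The wing gene a (arc) rose by 0.54 in light and was at -0.79 in darkness (difference 1.35, edgeR adjusted p = 9.49e-06). nord fell more in light than in darkness (-1.37 and -0.36, difference -0.98), and w rose less (0.75 and 2.08, difference -1.30).

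**Figure D5:**
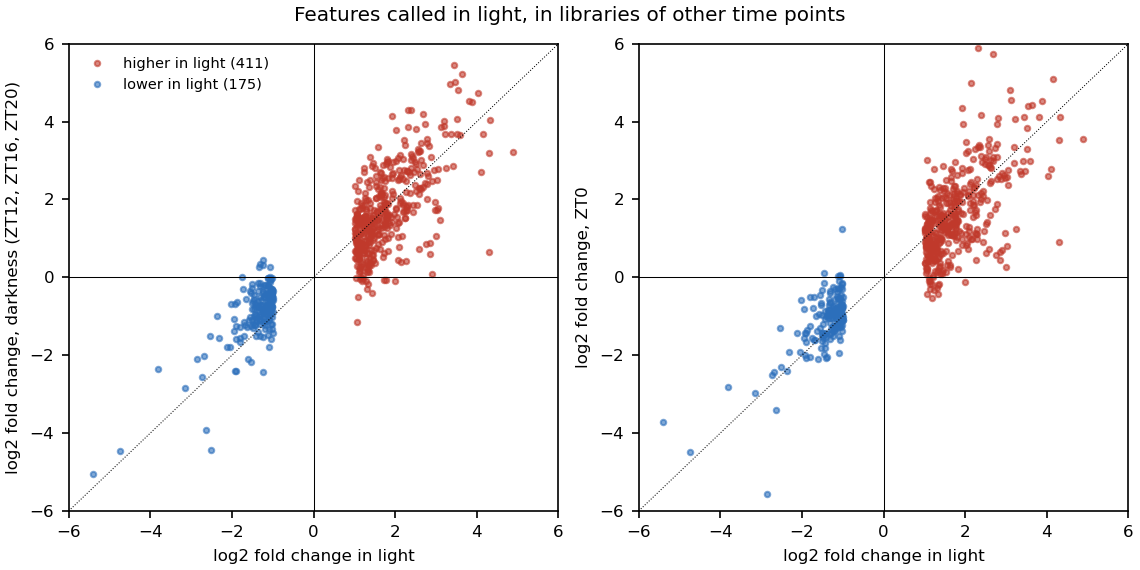
Log2 fold change in light (x axis) against that in darkness (left) and at ZT0 (right) for the features called higher (red, 411) or lower (blue, 175) in light and tested at the other times; the dotted line marks equal values. Of the red points 398 are above 0 in darkness and 397 at ZT0, and of the blue points 169 and 170 are below 0.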

How the data were processed

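Nuclear RNA was prepared with rRNA depletion and sequenced as read pairs. The deposited values are raw counts per feature that the authors made with cutadapt 3.7, Trimmomatic 0.39, HISAT2 2.2.1, SAMtools 1.17 and featureCounts of Subread 2.0.1, as the submitters' processing notes name them. Read pairs were counted on exons of an annotation for BDGP6.46 without strand, and a pair that touched several features was not assigned, so overlapping genes lose reads. Multi-copy genes may be undercounted. The tables held 24278 features, of which 17895 had an FBgn identifier. Of these, 17855 matched a gene symbol, and biotypes came from the annotation of a later release (BDGP6.54), used for names and classes only.

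The 12 libraries were grouped by their labels. Counts were normalised by TMM, features with at least 1 CPM in all 3 replicates of at least 1 group were kept, and genotype was tested with time point as a covariate by the quasi-likelihood test of edgeR 4.0.16 in R 4.3.3, with Benjamini-Hochberg adjustment over all features tested. These thresholds follow the study's methods. The paper also reports a correction for batch effects in its knockdown RNA-seq, made with RUVseq. The main fit here left such a correction out, and 1 RUVs factor was run only as an alternative. The difference between ZT4 and ZT8 was the interaction term, the other time points were fitted in 23 other libraries, and light was compared with darkness in 35. On simulated counts of 10622 features for the comparison in light, 89 of 100 changes of 1.5 and 61 of 100 changes of 0.8 on the log2 scale were found, with 7 of 10422 unchanged features called. For the difference between ZT4 and ZT8, 150 of 200 changes of 2 were found and 7 of 10422 unchanged features called. The simulated counts were drawn independently, without variation that the genes of a library share. They therefore cannot tell how many unchanged features were called in the real libraries.

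Genes were named by rule: the methyltransferase genes Set1, trr and trx, and, among features past the study's thresholds with at least 10 CPM in the higher genotype, no overlap between genotypes and one direction at both times, the 12 largest rises and 12 largest falls with a gene name and the 4 of each with an RNA-class name. Only 1 RNA-class fall met it. Members of the gene lists called at an adjusted p under 0.05 could be named as well, and any other gene was chosen after its values were seen. The comparison, its members and the lists were chosen with earlier results of these data known, and the lists carry no test of their own. Of the list entries, 12 matched no feature. Alternatives were other normalisations (DESeq2 1.42.0 size factors, upper quartile), the DESeq2 Wald test, edgeR's likelihood ratio test, other filters, all features, replicate blocks, 1 RUVs factor (unwanted variation estimated from replicates), single time points and 15 fits with libraries left out. No sequences were analysed here.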

Additional observations from a re-analysis of the deposited data

Results flagged for a closer look

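A first set of genes stood out because the effect of the Set1 label at ZT8 differed from that at ZT4 in edgeR's test of the difference itself. The differences on the log2 scale were -1.11 for per, -0.92 for tim, -1.48 for vri and -1.36 for cwo among the clock genes, -1.18 for sqa, -1.82 for Zasp66, -2.10 for GAPsec, -2.20 for S-Lap2 and 1.17 for tyn. The troponin C gene TpnC41C rose at both times, by 2.34 at ZT4 and 0.82 at ZT8 (difference -1.52, edgeR adjusted p = 0.0296).

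Several genes of this set moved in opposite directions at the 2 times. tws, a regulatory subunit of protein phosphatase 2A that acts in the clock, rose by 0.73 at ZT4 and fell by 0.49 at ZT8 (difference -1.22, edgeR adjusted p = 0.0194). The mitochondrial carrier gene Bmcp rose by 0.70 and fell by 0.56 (difference -1.25, edgeR adjusted p = 0.0209), and CG31522 rose by 0.52 and fell by 0.33 (difference -0.85, edgeR adjusted p = 0.0296). CG14556 rose by 1.75 and fell by 0.62 (difference -2.37), and lncRNA:CR46258 rose by 1.18 and fell by 0.84 (difference -2.02).

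The others were called at one time only, or at both with unequal size. The ubiquitin protease gene Usp8 fell at ZT8 (-0.83, difference -1.06), as did nonA-l (-1.39, difference -1.36). Neu2 rose at ZT4 (2.18, difference -2.04) and lncRNA:CR44743, at a control mean of 0.554 CPM, rose at ZT8 (3.62, difference 3.52). CG16721 rose more at ZT4 than at ZT8 (2.14 and 1.10, difference -1.05), and CG17707 less (0.94 and 2.12, difference 1.18). Each of these differences was lost in 2 to 14 of the 15 fits with libraries left out, and each kept its sign.

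A second set differed between light and darkness in the test of that difference. Effects were higher in light by 3.57 for lab, 2.73 for agt and 2.25 for twr, and lower by a difference of -1.97 for CG31286 and -1.18 for sunz, all of them from the stretch around Taf1. In darkness both genotypes were low for the first 3 of these. The highest group means were 2.65 CPM for lab (Set1 RNAi ZT20), 3.35 CPM for agt (control ZT20) and 7.58 CPM for twr (Set1 RNAi ZT12). In the stretch around CG31516, CG14641 had a difference of -0.82. The other values were -2.15 for Cyp4p1, -1.90 for Cyp4p2, 1.35 for a, -0.98 for nord, -1.30 for w, -1.09 for tyn, 1.87 for S-Lap2, 0.92 for CG16721, 1.96 for lncRNA:CR45921, 1.76 for CG17267 and -1.45 for CG11052.

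Counts of transposable element copies, which the comparison did not use, held a further signal. Of 2115 copies tested among all features of the tables, 220 (10.4%) were higher and 74 (3.5%) lower in the Set1-labelled libraries at the study's thresholds, beside 4.43% and 1.7% of FBgn features, and the median log2 fold change was 0.13. Of 202 higher copies tested in darkness, 170 were called at an edgeR adjusted p under 0.05, and of 73 lower ones 64. Copies of a family share sequence, and read pairs that touched both a copy and a gene's exon were not assigned.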

How the results depend on the processing

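The counts of 471 higher and 181 lower features in light stayed within 1.5 times under both other normalisations, no filter on low counts, all features included, both replicate blocks, 1 RUVs factor, ZT8 alone, the DESeq2 Wald test (552 and 190) and edgeR's likelihood ratio test (574 and 211). They were 226 and 107 when each library had to reach 1 CPM, 313 and 90 with ZT4 alone, and the lower count was 108 in the fit of 35 libraries. With libraries left out, the higher count ran from 305 (without replicate 2 of every group) to 514, and the lower from 105 to 186. With no fold minimum, 1487 higher and 1344 lower features became 632 and 390 with ZT4 alone, 754 and 709 with 1 RUVs factor and 956 and 674 in the fit of 35 libraries, the lower became 824 with ZT8 alone, and with libraries left out they ran from 789 to 1672 and from 548 to 1428, both lowest without replicate 3 of every group. The 21 features that differed between ZT4 and ZT8 became 69 in the DESeq2 Wald test, and with libraries left out they ran from 0 to 21. It was 0 without replicate 1 and without replicate 2 of every group in edgeR's test, where 570 and 553 had an unadjusted p under 0.05. The cause was not tested.

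Deviations of libraries with the same replicate number correlated at -0.12, 0.02 and 0.03 at ZT4 and at 0.10, 0.10 and 0.24 at ZT8. For different numbers the values ran from -0.11 to 0.11 at ZT4 and from -0.17 to 0.10 at ZT8. With 3 libraries in each group, these values cannot tell whether the replicate numbers pair the samples. A replicate block of time point and number gave 434 higher and 163 lower features in light and 9 differing between ZT4 and ZT8, and a block of the number over both times gave 472 and 181.

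In darkness, 380 higher and 58 lower features became 125 and 32 when each library had to reach 1 CPM and 644 and 132 with all features, and at ZT0, 111 and 38 became 188 and 86 with all features. The 46 that differed between light and darkness became 83 and 71 under these settings. In darkness and at ZT0 these settings tested 6400 and 12814 features instead of 10667.

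Called values of single genes changed sign only with the time point, among the genes named and the alternatives run. per was at 0.54 and cwo at 0.57 with ZT4 alone, and vri at -0.52, tws at -0.47, lncRNA:CR46258 at -0.82, CG31522 at -0.31 and Bmcp at -0.54 with ZT8 alone, against the mean over both times. Of the other fold changes of named genes in light over all settings, 4414 stayed on the same side of the threshold. That count includes sign changes of values called in neither fit. A further 552 lost the call and 9 gained it. Scaling moved the median of all features by less than 0.1.

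The 218 higher lncRNA features became 98 when each library had to reach 1 CPM, a filter that removes features near absent in one genotype. Set1 transcript was not reduced in these nuclei. The authors examined the knockdown by qRT-PCR and H3K4me3 by western blot in other tissue, which was not analysed here.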

Other observations

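Transposable element families differed among themselves. Of 683 tested copies of INE-1, a short non-autonomous element found throughout the genome, 73 were higher and 17 lower at the study's thresholds, with a median log2 fold change of 0.15. Of 30 copies of the retrotransposon copia, 8 were higher and 1 lower (median 0.80), and of 68 copies of Cr1a 11 and 1 (median 0.41). Copies of the retrotransposon roo leaned the other way, with 1 of 114 higher and 7 lower (median -0.41). Copies of a family are not replicates, and no test was made between families.

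Few small RNAs passed the test. Of 187 tested small nucleolar and Cajal body RNAs (snoRNA), which guide the modification of rRNA, 17 fell and 3 rose at an edgeR adjusted p under 0.05 (the falls being 9.09% of them, beside 12.7% of all features). Their median was -0.34, and it was -0.69 at ZT4 and 0.00 at ZT8. Leaving out single libraries moved the 17 falls to 6 without Set1 RNAi ZT4 replicate 3, 8 without either mCherry RNAi ZT8 replicate 1 or Set1 RNAi ZT8 replicate 3, 9 without Set1 RNAi ZT4 replicate 2, 10 without replicate 2 of either mCherry RNAi group and 11 without Set1 RNAi ZT4 replicate 1. The 3 rises became 6 without mCherry RNAi ZT4 replicate 2 and 5 without mCherry RNAi ZT8 replicate 3. Of 18 snRNA features, 2 fell (11.1%) and the median was -0.92, with -1.38 at ZT4, -0.13 at ZT8 and 0.16 in darkness. The 7SK RNA, which holds the elongation factor P-TEFb inactive, was counted as snRNA:7SKa at 212, 818 and 1414 CPM in the control and 171, 238 and 687 CPM in the Set1-labelled libraries (fold change -1.45, SE 0.39, edgeR adjusted p = 0.0121), with overlap. Of 47 tRNA features 1 rose and 1 fell (median 0.04), and of 157 antisense RNAs 18 rose and 12 fell, counted on the bases they share with no other exon.

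Genes of the rhabdomere, the stacked light-sensing membrane, were lower for 4 of 13 tested members and higher for none, 1 of which had an unadjusted p under 0.05 in that direction in edgeR's test. Beside chp these were the ERM protein gene Moe (-0.54), prom (-0.36) and the polarity gene sdt (-0.23, lost in 13 of 15 fits with libraries left out). Of 16 potassium channel genes, Irk1 (1.03, from 1.83 CPM in the control), Shaw (0.48) and Ork1 (0.40) rose and sei (-0.30) fell, with Shaw and sei lost in 9 of the 15 fits each, and the 3 rises became 1 without Set1 RNAi ZT4 replicate 3. Of 86 cytosolic ribosomal protein genes, RpL10 rose (0.64) and RpS3A (-0.41) and RpS5b (-1.003) fell, and of 67 mitochondrial ribosomal protein genes 1 rose and 4 fell, 7 without Set1 RNAi ZT4 replicate 2. Of 5 histone genes, BigH1 rose (0.995) and His3.3A fell (-0.62), and of 9 exosome genes Rrp42 fell (-0.57, lost in 7 of the 15 fits). The lowest edgeR adjusted p among 8 dosage compensation genes was 0.132.

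Some large changes lay outside the rule for named genes or the lists and were chosen after their values were seen. The forkhead transcription factor gene FoxP was at 227, 363 and 551 CPM in the control and 145, 152 and 186 CPM in the Set1-labelled libraries, without overlap, with a fold change of -1.19 (SE 0.13, edgeR adjusted p = 8.41e-06). In darkness it was at -0.93 (edgeR adjusted p = 8.43e-06). CG17267 went from a mean of 3.32 CPM to 96.0 CPM (fold change 4.89), with other exons over 66.9% of its bases, where pairs were not assigned. CG3546 rose from 2.04 to 30.1 CPM (3.81) and CG11052 fell from 52.2 to 3.69 CPM (-3.83).

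Gene structure went along with the calls. Of 1865 tested features with 1 exon block, 7.19% were higher at the study's thresholds, and of 3309 with 6 or more it was 2.96%. In the lowest quartile of exon length 7.11% were higher and 1.62% lower, and in the highest 2.52% and 0.79%. The part of expression level in these differences was not tested.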
